A study of Mus musculus with 6 samples.

Results

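The genes described here encode the constitutive proteasome and the factors that assemble or open it. They were taken from the deposited count table by symbol, as all genes named Psma, Psmb, Psmc, Psmd, Psme, Psmf or Psmg with a number, leaving out the immunoproteasome genes Psmb8, Psmb9, Psmb10, Psme1 and Psme2. A summed count of at least 60 over the 6 libraries was also required. This gave 42 of the 56691 genes in the table, out of 48 that carry such a symbol, of which 5 were left out by name and 1 by its count. Just inside the count minimum lay Psma8 with 98 counts, and outside it lay Psmb11, the beta subunit of thymic cortical cells, with 4 counts. All 42 passed the filter on low counts.

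The libraries came from primary cardiomyocytes of neonatal mice (NMCMs). Both groups received an adenovirus of serotype 5 with the cardiac troponin T (cTNT) promoter, which drives a transgene in cardiomyocytes, so both carry virus. In 1 group of 3 libraries the virus carried HMGB2, a DNA-bending chromatin protein, and in the other group of 3 it was the empty vector. The series title names cardiomyocyte proliferation, heart regeneration, MTA2 and metabolism. The strain, the age in days, the viral dose, the time of collection and whether replicates are separate cultures are not given in the sources used. The p-values therefore measure only how far these samples spread, and that spread may be technical.

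The proteasome degrades proteins that carry ubiquitin chains. Its core particle, called 20S, is a barrel of outer alpha rings, which form the gate, and inner beta rings, which hold the catalytic sites. The regulatory particle, called 19S, caps the barrel: its base unfolds substrates with a ring of ATPases and its lid removes ubiquitin. Dedicated chaperones assemble both particles and leave again, while other activators bind the core in place of the 19S cap. In heart muscle the system clears damaged and misfolded proteins of the contractile apparatus, and its subunit genes are known to be raised together when proteasome activity is limiting.

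Promoter windows, 250 bases before to 50 bases after the RefSeq start on GRCm38.p6, are printed for 3 genes of the comparison. Psme4 is shown because it had the largest rise, and Psmc2 and Psmd14 because theirs were the largest falls past the threshold. All 3 lie on the plus strand. Capitals mark matches to motifs searched on both strands: the antioxidant response element with a TGAC core (TGACNNNGC), which stress-responsive factors of the NRF family bind, and the NF-Y box CCAAT. In Psme4 the capitals are 1 antioxidant response element match on the minus strand, beginning 7 bases before the start (position -7). In Psmc2 they are 1 CCAAT on the plus strand at position -28. A second RefSeq window of Psmc2, chr5:21786497-21786796, is not printed and holds a match to the related TGAG core (TGAGNNNGC) on the plus strand at position -134. In Psmd14 they are 1 CCAAT on the minus strand at position -159 and an overlapping pair on opposite strands at positions 5 and 8.

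Psme4, chr11:30771525-30771824: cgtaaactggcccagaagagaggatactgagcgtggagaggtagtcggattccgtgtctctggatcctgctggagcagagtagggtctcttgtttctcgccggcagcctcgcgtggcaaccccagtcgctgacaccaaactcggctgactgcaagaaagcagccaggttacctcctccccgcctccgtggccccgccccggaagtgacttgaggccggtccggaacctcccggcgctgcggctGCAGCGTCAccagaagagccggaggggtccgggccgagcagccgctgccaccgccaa

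Psmc2, chr5:21785025-21785324: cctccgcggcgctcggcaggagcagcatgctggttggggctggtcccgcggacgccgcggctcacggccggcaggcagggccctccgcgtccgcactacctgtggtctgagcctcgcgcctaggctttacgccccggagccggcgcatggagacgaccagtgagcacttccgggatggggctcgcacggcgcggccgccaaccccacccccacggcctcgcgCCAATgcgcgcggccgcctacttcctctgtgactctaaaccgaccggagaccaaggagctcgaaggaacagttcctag

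Psmd14, chr2:61711444-61711743: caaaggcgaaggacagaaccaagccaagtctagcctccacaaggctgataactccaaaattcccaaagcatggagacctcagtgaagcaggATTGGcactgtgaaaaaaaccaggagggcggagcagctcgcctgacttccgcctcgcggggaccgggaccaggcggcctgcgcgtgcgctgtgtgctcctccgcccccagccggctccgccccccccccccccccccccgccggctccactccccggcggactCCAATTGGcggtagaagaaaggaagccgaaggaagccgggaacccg

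The depth was 12498215 to 16618365 counts per library, and the 42 genes took 0.460% to 0.568% of them. Hmgb2 itself was 4.33-fold higher in the libraries with the HMGB2 virus (log2 fold change 2.11 ± 0.10 SE, adjusted p = 1.89e-06 in edgeR), with 46.8, 44.8 and 36.3 against 175, 196 and 182 in CPM (counts scaled to a common library size) and the viral and chromosomal transcripts counted together. Of 15429 genes tested, 14.4% were higher and 10.8% lower with HMGB2 (edgeR quasi-likelihood test, Benjamini-Hochberg adjusted p under 0.05). Markers of the labelled cell type were abundant. The 8 cardiomyocyte markers summed to 14608 to 15556 CPM with the vector. With HMGB2 they summed to 21393 to 21607 CPM, and 6 of the 8 were higher. Markers of other cells were also present, with lower or overlapping sums. The 6 fibroblast markers summed to 4729 to 4798 and 4184 to 4271 CPM (2 lower), the 5 endothelial markers to 2130 to 2167 and 1827 to 1880 CPM (2 lower), and the 5 macrophage markers to 81.9 to 115 and 62.9 to 73.9 CPM (2 lower). The 4 smooth muscle markers summed to 1033 to 1162 and 1039 to 1168 CPM (1 higher, 1 lower). Without vector 1 and HMGB2 3, 8 of the cardiomyocyte markers were higher, and 5 of the fibroblast and 4 of the endothelial markers lower. Of all genes tested there 20.9% were higher and 19.1% lower. None of the 3 erythroid markers had enough counts to be tested, and Hba-a1 was at 0 in 5 of 6 libraries. The part of these marker shifts in the proteasome results was not tested, and in bulk RNA fewer cells of a type and less RNA per cell cannot be told apart.

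Libraries vector 1 and HMGB2 3 stood apart from the others, and the proteasome genes showed this strongly. In vector 1, 41 of the 42 genes lay above the mean of vector 2 and 3, with a median log2 difference of 0.26 against 0.017 over all genes. In HMGB2 3, 39 of 42 lay above the mean of HMGB2 1 and 2, with a median of 0.25 against 0.0063 over all genes. Psme4 was lower in both libraries than in the rest of their group, by 0.20 and 0.14 on the log2 scale. Vector 1 held the highest value of all 6 libraries for 36 genes. Across genes, which are not independent replicates, the deviation of each of these libraries had a Spearman rho of -0.48 (vector 1) and -0.45 (HMGB2 3) with transcript length over 15288 genes, and of -0.36 and -0.35 over the 42. Proteasome transcripts are short, with a median length of 1900.5 bases for the longest annotated transcript of a gene against 3221.5 over all genes. The part of transcript length in the deviations was not tested. For the called genes and the counts of calls, values without these libraries stand beside the results. Both were left out with their deviation known, which narrows the spread within the groups. Of all genes tested, 40.0% passed in either direction there, against 25.2% with 6 libraries. Passing there is therefore not separate support for a call.

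**Figure D1:**
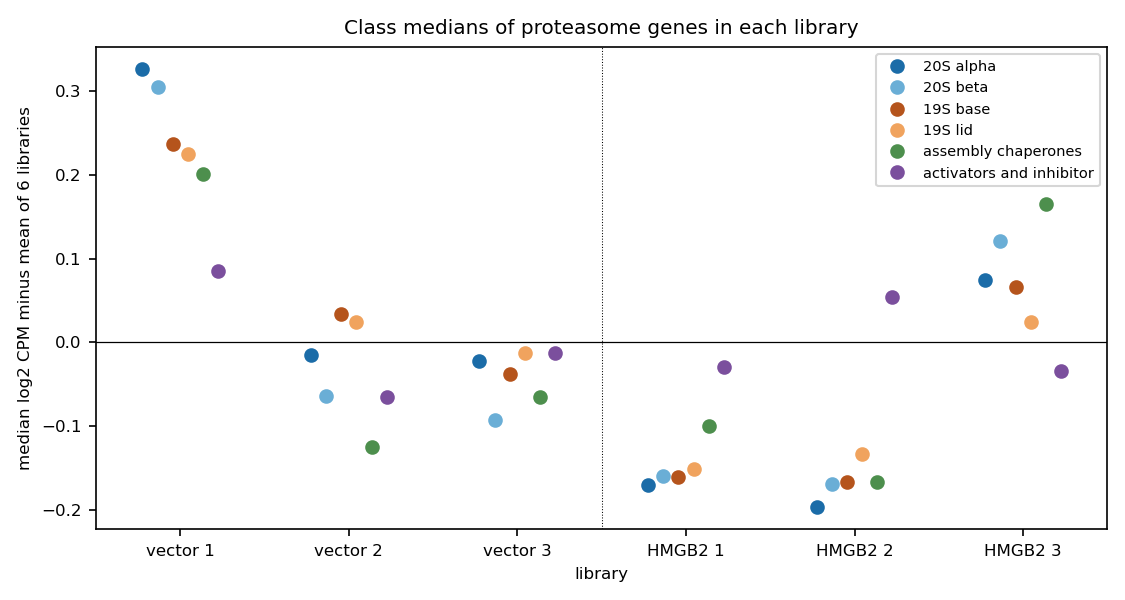
Median deviation of each proteasome class in each library. The vertical axis is the log2 CPM of a gene minus its mean over the 6 libraries, as the median over the genes of a class (points, coloured by class), and the horizontal axis lists the libraries. Vector 1 and HMGB2 3 are the highest of their groups for both 20S classes and both 19S classes.

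Most constitutive proteasome transcripts had small negative log2 fold changes with HMGB2, while the activator gene Psme4 was 2.12-fold higher. Psme4 rose and 5 genes fell (Psmc2, Psmd14, Psmd7, Psmd1 and Psme3), while 36 did not pass the threshold. The falls are 5 of 42 beside 10.8% of all genes tested, a share near that background, and the rise is 1 of 42 beside 14.4%. The log2 fold change was negative for 36 of 42 genes, against 50.2% of all genes tested, with a median of -0.15 against -0.0022. The number of negative values rested in part on vector 1. Without it 10 of the 42 genes changed direction, each from negative to positive. Without any other single library 1 to 3 genes changed direction. The size of the median rested on single libraries: it was -0.052 without vector 1, -0.091 without HMGB2 2 and -0.23 without HMGB2 3. All 3 HMGB2 libraries lay below all 3 vector libraries for 8 genes and above them for 2 (Psme4 and Psma8), where 18.9% and 21.6% of all genes did so. DESeq2 called 1 gene higher and 4 lower, beside 13.0% and 10.5% of all genes. With limma-voom 1 was higher and 5 were lower, beside 14.3% and 10.7%. With no filter on low counts 6 were lower, beside 5.99% of 31188 genes: Psmc2, Psmd14 and Psmd7 and, in place of Psmd1 and Psme3, the alpha genes Psma5, Psma6 and Psma7.

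The number of falls rested on single libraries. It was 0 without HMGB2 1 and 0 without HMGB2 2, where 5.49% and 5.67% of all genes fell. It was 2 without vector 2 and 2 without vector 3 (6.16% and 7.04% of all genes), against 4 without vector 1 (12.4%) and 5 without HMGB2 3 (8.97%). Without vector 1 and HMGB2 3 together, which leaves 2 libraries a group, 19 genes fell and 2 rose, beside 19.1% and 20.9% of the 15644 genes tested there. The median of the 42 was then -0.12.

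**Figure D2:**
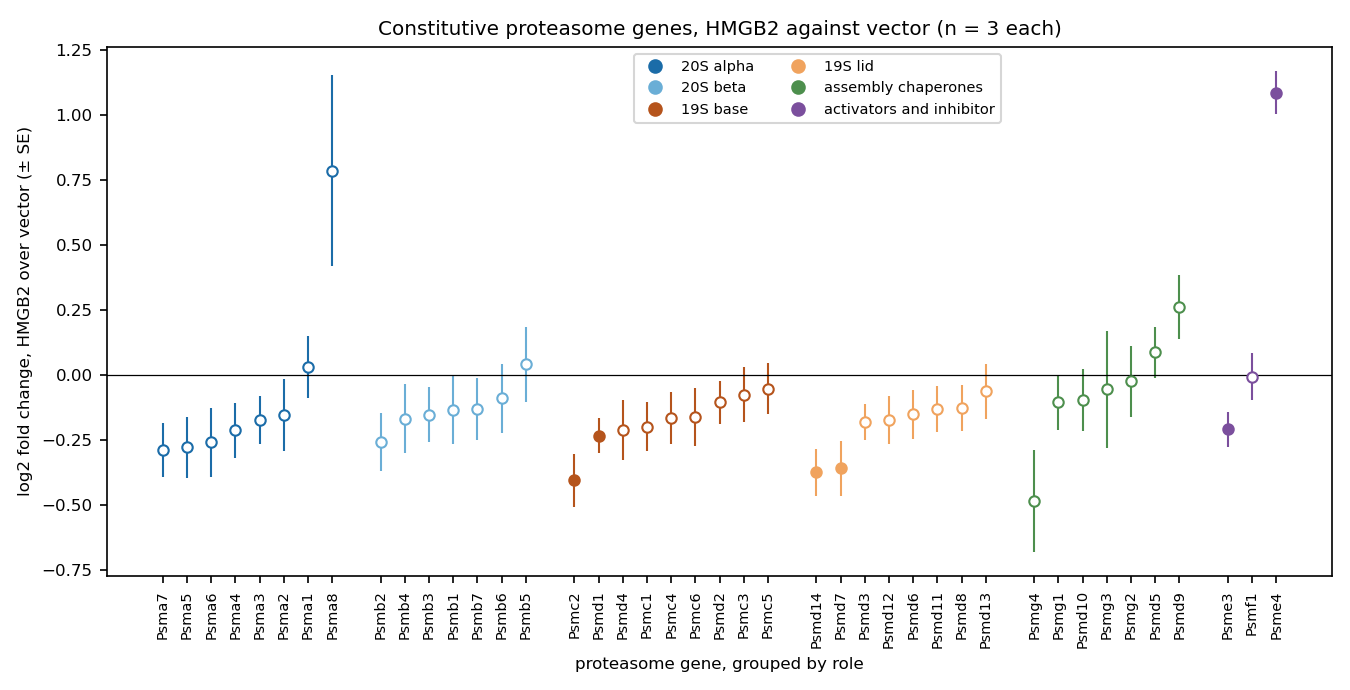
Log2 fold change of each of the 42 genes, HMGB2 over vector, with its SE, grouped by role. Filled points passed an edgeR adjusted p of 0.05 and open points did not: Psme4 lies at 1.09, the 5 that fell lie between -0.41 and -0.21, and the 17 genes of the 19S particle are all below 0.

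Of the activator genes in the set, whose products open the core without the 19S cap, Psme4 rose and Psme3 fell. The call of Psme3 passed in 6 of 17 alternatives. The activator subunits Psme1 and Psme2, left out by name, rose (log2 fold changes 0.82 and 0.87). Psme4 (ENSMUSG00000040850, GRCm38 chr11:30771726-30880361, plus strand) encodes a large single-chain activator that is known for the degradation of acetylated histones and for its role in male germ cells. It held 206, 235 and 238 CPM in the vector libraries and 494, 499 and 449 CPM in the HMGB2 libraries. The lowest HMGB2 library stood well above the highest vector library. Psme4 was 2.12-fold higher (log2 fold change 1.09 ± 0.08 SE, adjusted p = 2.13e-05 in edgeR). A log2 fold change of 1 or more was seen for 5.27% of all genes tested. Leaving out any 1 library gave 1.02 to 1.14, leaving out vector 1 and HMGB2 3 gave 1.07, and the call held in 17 of 17 alternatives.

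Psme3 (chr11:101316213-101323537, plus strand) encodes the nuclear activator that forms a ring of identical subunits and takes substrates without ubiquitin. Its values were 118, 112 and 114 CPM with the vector and 99.9, 102 and 96.0 CPM with HMGB2. The groups did not overlap, but they lay close together. Psme3 fell by 0.21 in log2 units (± 0.07 SE, adjusted p = 0.047 in edgeR). This call was lost when any 1 library was left out (edgeR adjusted p up to 0.149, without HMGB2 1). It was also lost under DESeq2 (0.0655), with no filter on low counts (0.149) and with limma on FPKM (0.0768 and 0.0763). Psme3 passed without vector 1 and HMGB2 3 (log2 fold change -0.16, edgeR adjusted p = 0.0113), where the choice of libraries narrowed the spread. Psmf1, an inhibitor of the core particle, did not pass the threshold, with overlapping groups of 19.9 to 22.1 CPM with the vector and 20.4 to 21.7 CPM with HMGB2.

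**Figure D3:**
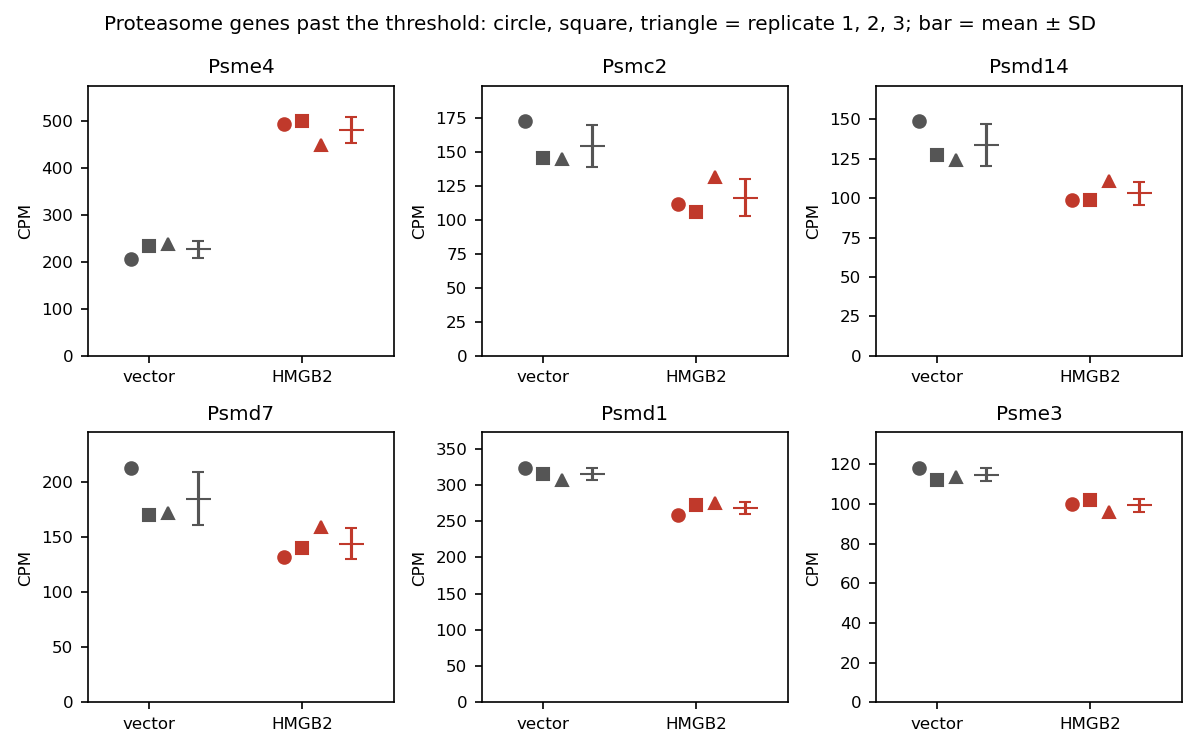
CPM of the 6 proteasome genes past the threshold in each library (vertical axes from 0), with vector in grey and HMGB2 in red. Circles, squares and triangles are replicates 1, 2 and 3, and bars are means with SD (n = 3). Psme4 goes from 206 to 238 CPM up to 449 to 499 CPM, and the other 5 are lower with HMGB2 without overlap.

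In the base of the 19S particle all 9 genes had negative log2 fold changes, from -0.41 to -0.05 with a median of -0.17 (-0.081 without vector 1, -0.25 without HMGB2 3). Of these, 2 fell and 7 did not pass, where 10.8% of all genes tested fell. With 1 library left out, Psmc3 and Psmc5 could turn positive (up to 0.029 and 0.032). Psmc2 (chr5:21785283-21803787, plus strand) encodes an ATPase of the unfolding ring. It held 173, 146 and 145 CPM with the vector against 112, 106 and 132 CPM with HMGB2. The vector libraries were all higher, with vector 1 highest in 1 group and HMGB2 3 highest in the other. Psmc2 was 24.5% lower (log2 fold change -0.41 ± 0.10 SE, adjusted p = 0.0189 in edgeR). The call was lost without HMGB2 1 (edgeR adjusted p = 0.0836) or HMGB2 2 (0.0882). Psmc2 passed without vector 1 and HMGB2 3 (log2 fold change -0.41, edgeR adjusted p = 2.04e-07), where the choice of libraries narrowed the spread.

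Psmd1 (chr1:86064387-86139151, plus strand) encodes the large non-ATPase scaffold of the base. Its libraries held 324, 315 and 307 CPM with the vector and 258, 272 and 274 CPM with HMGB2, so that the vector libraries varied little and lay above. Psmd1 fell by 0.23 in log2 units (± 0.07 SE, adjusted p = 0.0301 in edgeR). The call was lost without vector 2 (0.0943), vector 3 (0.0614), HMGB2 1 (0.146) or HMGB2 2 (0.0999), with no filter on low counts (0.0726), and with limma on the authors' FPKM (0.0593 and 0.0588 with pseudocounts of 0.1 and 1). The remaining base genes that did not pass were Psmd4, a ubiquitin receptor, at -0.21, the ATPases Psmc1 at -0.20, Psmc4 at -0.17, Psmc6 at -0.16, Psmc3 at -0.08 and Psmc5 at -0.05, and Psmd2, the other scaffold, at -0.10.

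In the lid all 8 genes had negative log2 fold changes too, from -0.37 to -0.06 with a median of -0.16 (-0.087 without vector 1). With 1 library left out, Psmd13 could turn positive (up to 0.031). Of the 8 genes 2 fell, again beside 10.8% of all genes tested. Psmd14 (chr2:61711694-61800376, plus strand) encodes the metalloprotease that cuts ubiquitin chains off substrates as they enter. It held 149, 128 and 124 CPM with the vector and 99.1, 98.8 and 111 CPM with HMGB2. Each HMGB2 library was below each vector library. Psmd14 was 22.8% lower (log2 fold change -0.37 ± 0.09 SE, adjusted p = 0.0151 in edgeR), a call lost without HMGB2 1 (0.0737) or HMGB2 2 (0.0719).

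Psmd7 (chr8:107580381-107588464, minus strand) encodes the partner that pairs with the Psmd14 protein in the lid. Its libraries held 213, 169.6 and 172 CPM with the vector and 132, 140.3 and 159 CPM with HMGB2. The lowest vector library stood just above the highest HMGB2 library. Psmd7 was 22.1% lower (log2 fold change -0.36 ± 0.11 SE, adjusted p = 0.0364 in edgeR). The call was lost without vector 2 (0.0541), vector 3 (0.0507), HMGB2 1 (0.148) or HMGB2 2 (0.123), and with limma on the authors' FPKM (0.0915 with a pseudocount of 0.1). Without vector 1 and HMGB2 3 the log2 fold change of Psmd14 was -0.35 (adjusted p = 3.92e-06) and that of Psmd7 -0.33 (3.23e-06). Psmd3, a scaffold of the lid, had separated groups (-0.18) but missed the threshold (edgeR adjusted p = 0.0857).

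The alpha ring had no gene past the threshold among 8, with 2 lower at an unadjusted edgeR p under 0.05 (16.9% of all genes were) and 0 under either DESeq2 or limma-voom. Log2 fold changes ran from -0.29 (Psma7) to 0.79 (Psma8), with a median of -0.19 (-0.099 without vector 1) and 6 of 8 negative. With no filter on low counts 3 passed as lower (Psma5, adjusted p = 0.0359 in edgeR, Psma6, 0.0488, and Psma7, 0.0223), and Psma7 also passed without HMGB2 3 (0.0388). Psma2, a subunit of the ring, held 162, 121 and 116 CPM with the vector and 113, 107 and 138 CPM with HMGB2 (log2 fold change -0.16 ± 0.14 SE, adjusted p = 0.465 in edgeR). The groups overlapped, since HMGB2 3 exceeded vector 2 and 3. Psma7 had 152, 121 and 125 CPM against 102, 104 and 120.2 CPM (log2 fold change -0.29 ± 0.10 SE, adjusted p = 0.074 in edgeR). Its groups met without overlapping. Psma8 encodes the alpha subunit of the testis proteasome that takes the place of the Psma7 product. Its level was low, at 1.12, 0.438 and 0.859 CPM with the vector and 1.2, 1.38 and 1.58 CPM with HMGB2, and its log2 fold change of 0.79 had an SE of 0.37 (edgeR adjusted p = 0.157).

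The beta ring likewise had no gene past the threshold among 7, with 1 (Psmb2) lower at an unadjusted p under 0.05 and 0 under either DESeq2 or limma-voom. The groups overlapped for all 7, and log2 fold changes ran from -0.26 (Psmb2) to 0.04 (Psmb5) with a median of -0.14. The direction of that median turned without vector 1 (0.0050), and it lay between -0.24 (without HMGB2 3) and -0.081 (without HMGB2 1) when any other single library was left out. The structural subunit Psmb4 held 227, 166 and 162 CPM with the vector and 154, 157 and 183 CPM with HMGB2, and Psmb1 held 182, 134 and 136 against 128, 128 and 156 CPM. In both, vector 1 was the outlying library of its group and HMGB2 3 reached above vector 2 and 3. Of the catalytic subunits, Psmb5 (the chymotrypsin-like site) held 54.9, 41.5 and 38.9 CPM against 45.4, 40.3 and 53.2 CPM, or 0.04 (SE 0.14) as a log2 fold change. Psmb6 (the caspase-like site) held 128, 98.9 and 96.1 against 92.6, 91.9 and 118 CPM, at -0.09 (SE 0.13). Psmb7 (the trypsin-like site) held 147, 119 and 112 against 105, 109 and 129.9 CPM, at -0.13 (SE 0.12). None of the 3 catalytic genes passed the edgeR threshold (adjusted p 0.873, 0.671 and 0.466).

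The immunoproteasome genes, which lie outside the set and replace these catalytic subunits in cells exposed to interferon, went up. All 5 rose. Psmb8, which replaces the Psmb5 product, held 16.0, 11.4 and 10.02 CPM with the vector and 31.98, 29.6 and 41.8 CPM with HMGB2 (log2 fold change 1.47 ± 0.18 SE, adjusted p = 0.000427 in edgeR). Psmb9 went from 2.22 to 3.29 CPM with the vector up to 5.65 to 7.39 CPM (log2 fold change 1.36), and Psmb10 from 16.1 to 19.97 CPM up to 34.3 to 40 CPM (1.04). The activator subunits Psme1 and Psme2 went from 44.9 to 60.5 and 13.7 to 19.5 CPM up to 80.8 to 105 and 25.8 to 33.4 CPM (0.82 and 0.87). None of the 5 overlapped between the groups, where 21.6% of all genes lay wholly higher with HMGB2. Without vector 1 and HMGB2 3 all 5 rose as well, beside 20.9% of all genes tested there. FPKM divide by all annotated exon bases of a gene, which are 3381 for Psmb8 and 899 for Psmb5. An expressed transcript can be shorter, so the size of a ratio between genes is uncertain. The same lengths apply in both groups. On the FPKM scale the ratio of Psmb8 to Psmb5 was 0.0730 ± 0.00437 with the vector and 0.197 ± 0.0109 with HMGB2 (SD, n = 3 each). The ratio of Psmb9 to Psmb6 was 0.0122 ± 0.000841 and 0.0338 ± 0.00375, and that of Psmb10 to Psmb7 was 0.288 ± 0.0145 and 0.648 ± 0.0272. On this scale and in CPM the constitutive catalytic gene stayed the higher of each pair in both groups. Part of Psme2 is 99.3% identical to Psme2b, and Psmb9 shares exon bases with Tap1 on the opposite strand, which also rose (log2 fold change 1.48), so reads of these 2 are uncertain. The denominators Psmb5, with a near-identical copy, and Psmb7, with exons overlapping Nek6, are uncertain too, as given below. Summed with its copy, Psmb5 held 119, 92.5 and 90.7 CPM with the vector and 107, 95.4 and 122 CPM with HMGB2. With these sums its ratio would be lower in both groups.

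Among the 7 assembly chaperones 0 passed the edgeR threshold, with 1 (Psmg4) lower at an unadjusted p under 0.05 and 0 under either DESeq2 or limma-voom. The median log2 fold change was -0.06, which turned to 0.092 without vector 1 and to 0.028 without HMGB2 1 and reached -0.15 without HMGB2 3. The range of the genes, from -0.48 to 0.26, was wider than in the 19S classes. Psmd5, which helps to build the base, held 70.1, 56.7 and 59.7 CPM with the vector and 64.0, 62.3 and 71.6 CPM with HMGB2 (log2 fold change 0.09, SE 0.10). Psmg2, which builds the alpha ring as a partner of Psmg1, held 27.8, 21.7 and 22.6 against 22.1, 20.97 and 27.7 CPM (-0.02, SE 0.14). The groups overlapped for both. The extremes were genes of low or moderate level. Psmg4 was at 3.58 to 4.33 CPM and then 2.41 to 3.21 CPM (-0.48 ± 0.20 SE, adjusted p = 0.105 in edgeR), without overlap. It passed with limma on the authors' FPKM (adjusted p = 0.0424 with either pseudocount). Psmd9, a chaperone of the base, was at 19.6 to 24.5 and then 23.6 to 28.9 CPM (0.26 ± 0.12 SE, adjusted p = 0.157 in edgeR), and passed without vector 1 (adjusted p = 0.0319) or without vector 1 and HMGB2 3 (0.032). Whether the classes differ from each other was not tested.

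Leaving out vector 1 and HMGB2 3 left most fold changes near their place and narrowed the spread within the groups. The 19 genes that fell in those 4 libraries were 5 of the alpha ring (Psma3, Psma4, Psma5, Psma6 and Psma7, -0.25 to -0.18), 2 of the beta ring (Psmb2 at -0.24 and Psmb3 at -0.16), 6 of the base, 5 of the lid and Psme3. In the base these were Psmc1, Psmc2, Psmc4, Psmc6, Psmd1 and Psmd4, and in the lid Psmd3, Psmd6, Psmd7, Psmd12 and Psmd14. The catalytic genes Psmb5 (0.10), Psmb6 (-0.08) and Psmb7 (-0.10) did not pass there either, with adjusted p values of 0.365, 0.252 and 0.113. The 2 that rose were Psme4 and Psmd9 (0.27). Both libraries were left out with their place within the groups known, and 2 libraries a group give a weak estimate of the spread.

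**Figure D4:**
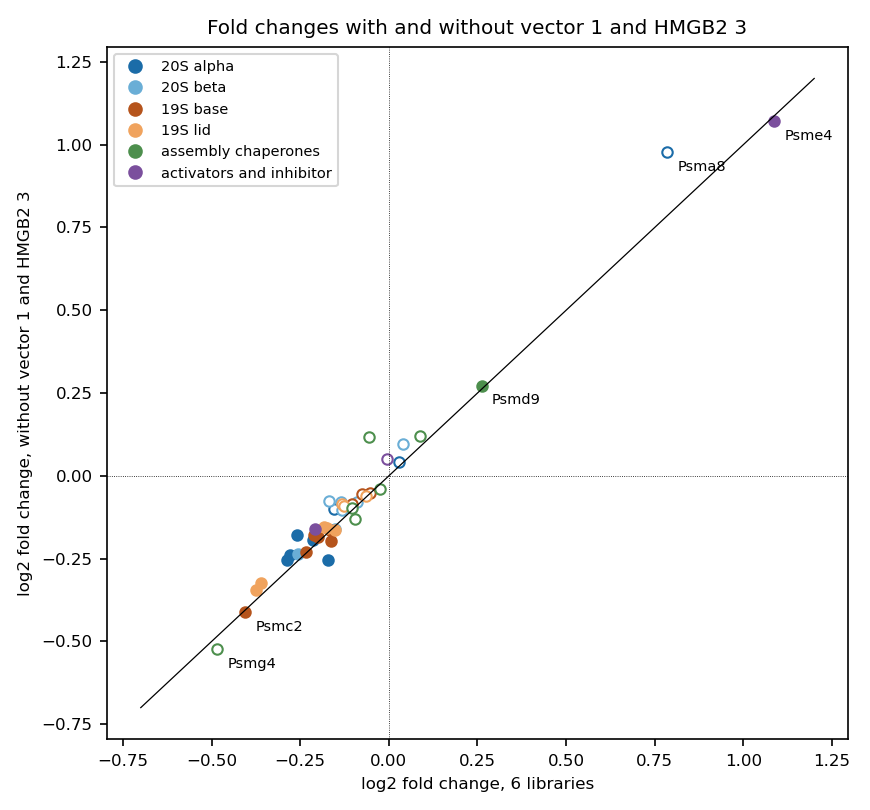
Log2 fold change of the 42 genes from 6 libraries (horizontal axis) and from the 4 libraries without vector 1 and HMGB2 3 (vertical axis), coloured by class, with the line of equality. Filled points passed an edgeR adjusted p of 0.05 in the 4 libraries (19 lower and 2 higher), and Psme4 lies at 1.09 and 1.07.

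Levels between genes were compared as FPKM, which divide by all annotated exon bases of a gene. These bases were 555 for Psmg4 and 7248 for Psmd9. Expressed transcripts can be shorter, so the order and the class medians depend on this choice of length. With the vector they ran from 0.32 (Psma8) and then 2.90 (Psmg3) to 119 FPKM (Psmc1), which without Psma8 is a range of 41.0-fold. Class medians with the vector were 64.2 FPKM for the base, 49.8 for the beta ring, 46.2 for the lid, 39.5 for the alpha ring and 8.52 for the assembly chaperones. For 37 of 41 adjacent pairs in the order the ranges of the vector libraries overlapped. The genes share these libraries, so a pair can overlap in range and still keep its order within each library. Psmc1 lay above Psma6 in every vector library (133, 113 and 111 against 117, 85.7 and 83.0 FPKM) although their ranges overlapped. How many pairs kept their order in this way was not counted. The order was close to the same in both groups (Spearman's rho 0.96 over the 42 genes, which share the libraries). The exception was Psme4, which went from 26.7 ± 1.97 FPKM (place 31 of 42) to 57.6 ± 2.85 FPKM (place 11), a shift of 20 places, where the next largest shift was 6 places.

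Levels of cap genes in the set can be put as ratios within each library, which leaves out Psme1 and Psme2. Psme4 over Psme3 was 0.612, 0.734 and 0.737 with the vector and 1.74, 1.72 and 1.65 with HMGB2, so the ratio was below 1 in every vector library and above 1 in every HMGB2 library. Psme4 over the median of the 20S subunits (without Psma8) was 0.594 ± 0.118 with the vector and 1.41 ± 0.220 with HMGB2. The median of the 19S subunits over that of the 20S subunits was 1.10 ± 0.0577 and 1.09 ± 0.0185, and its libraries overlapped. These are ratios of transcripts per total exon length, not of protein. They do not give numbers of caps, since the Psme4 protein acts as a single chain and the Psme3 protein as a ring of subunits.

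**Figure D5:**
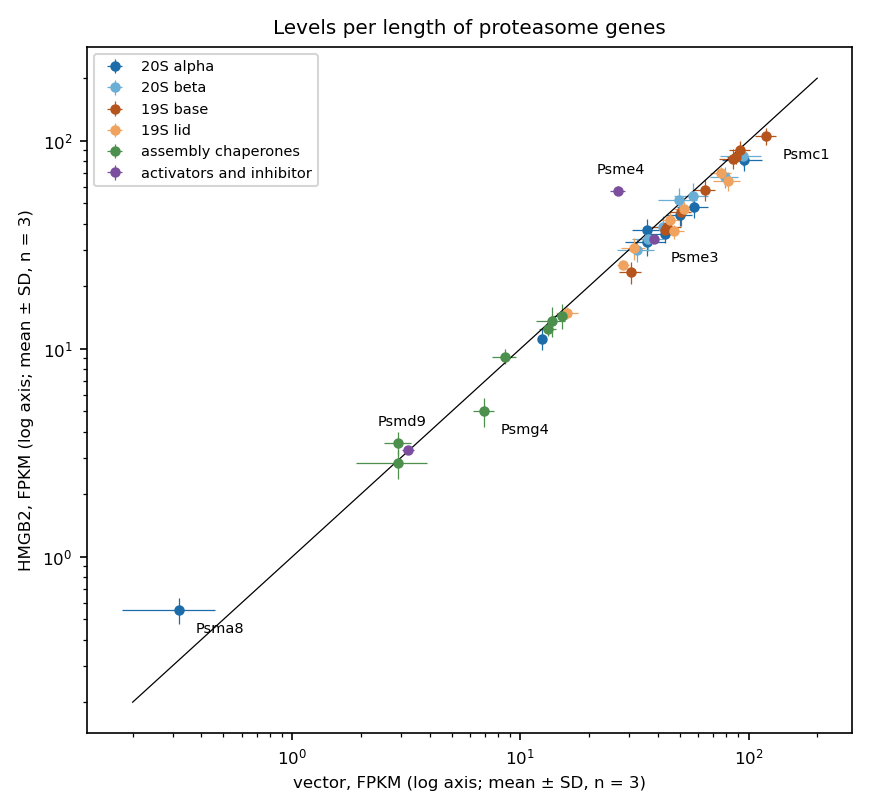
Mean FPKM of each of the 42 genes with the vector (horizontal) and with HMGB2 (vertical), on log axes, with SD bars (n = 3 each), coloured by class. The line marks equal levels; Psme4 lies above it at 26.7 and 57.6 FPKM, as does the far lower Psma8 at 0.32 and 0.557 FPKM, and the other genes lie nearer to it.

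Several of the genes share sequence with other genes, most of which were counted. Psma3 has a copy, Gm13835, that is 100% identical over 79.7% of the transcript and held 4505 counts, against 4035 for Psma3 itself. Psmb5 has a copy, Gm3375, that is 98.9% identical over 88.4% of the transcript and held 5177 counts against 4014. The levels of Psma3 and Psmb5 are therefore uncertain. Summed with their copies, the log2 fold change was -0.11 for Psma3 (edgeR adjusted p = 0.43) and 0.10 for Psmb5 (0.604), and Psma4 (-0.22) and Psma5 (-0.30) summed with theirs did not pass either. Exons overlap those of a gene on the opposite strand for Psmb7 (Nek6, 11.8% of its exon bases), Psmd13 (Sirt3, 10.1%, itself higher with a log2 fold change of 1.03), Psmc3 (Slc39a13, 8.25%) and Psmd9 (Gm26745, 25.5%), and the strand setting of the counts is not given, so their reads may be mixed. Gm26745 was not counted, and it matches 96.8% of a Psmd9 transcript at 99.9% identity, so the values of Psmd9 are uncertain. Of the genes past the threshold, Psmd1 overlaps Htr2b, which held 61 counts against 25396.

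For 7 of the 42 genes the annotation has a protein-coding neighbour that starts within 1000 bases on the other strand and runs the other way. Psmc2 and Dnajc2, which encodes a ribosome-associated chaperone, start 32 bases apart, and Dnajc2 fell as well (log2 fold change -0.58 ± 0.09 SE, adjusted p = 0.00200 in edgeR). Psmc5 and Ftsj3, a factor of ribosomal RNA processing, start 75 bases apart. There the neighbour fell (-0.84 ± 0.08 SE, adjusted p = 7.44e-05 in edgeR) while Psmc5 lay at -0.05. The neighbours of Psma2, Psma7, Psmb1, Psmd10 and Psmg2 did not pass the threshold.

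A RefSeq promoter window was found for 34 of the 42 genes, and motif shares were set beside those of all 27025 genes with a window of the same length. The antioxidant response element with a TGAC core (TGACNNNGC, as in Psme4 above) was in 6 of 34 (17.6%) against 14.0% of all genes. That with a TGAG core (TGAGNNNGC) was in 12 (35.3%) against 19.8%, and either core in 16 (47.1%) against 30.8%. The heat shock element pairs GAANNTTC and TTCNNGAA were in 2 (5.88%) each, against 9.04% and 9.60%. CCAAT, as in Psmc2 and Psmd14, was in 12 (35.3%) against 41.1%. The 6 genes with the TGAC core (Psmb5, Psmb6, Psmc6, Psmd9, Psmd12 and Psme4) had log2 fold changes of 0.04, -0.09, -0.16, 0.26, -0.17 and 1.09. Of the 12 with the TGAG core, Psmd5 lay at 0.09 and the rest were negative. They were Psma4 (-0.21), Psma5 (-0.28), Psma6 (-0.26), Psma7 (-0.29), Psmb3 (-0.15), Psmc2 (-0.41) and Psmc6 (-0.16). The others were Psmd1 (-0.23), Psmd12 (-0.17), Psmd13 (-0.06) and Psmg4 (-0.48). Of all 42 genes 36 were negative. A match describes letters in this window and no binding was measured.

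Genes that work with the proteasome but lie outside the symbol rule were read from lists. For the counts in these lists, the shares over all genes tested were 14.4% higher and 10.8% lower. Without vector 1 and HMGB2 3 they were 20.9% and 19.1%. Of 9 further proteasome genes 2 fell and 7 did not pass, with a median log2 fold change of -0.06. Adrm1, a ubiquitin receptor at the 19S tip, held 50.5, 48.4 and 45.1 CPM with the vector and 32.8, 28.7 and 36.1 CPM with HMGB2 (log2 fold change -0.56 ± 0.10 SE, adjusted p = 0.00314 in edgeR). The groups did not overlap, and the log2 fold change was -0.60 without vector 1 and HMGB2 3. Txnl1, a thioredoxin-like protein that binds the 19S particle, fell by 0.35 on the log2 scale, a call lost without HMGB2 1 (adjusted p = 0.0898 in edgeR) or HMGB2 2 (0.099). Pomp, the maturation factor of the core, did not pass the threshold, at 94.3 ± 16.4 and 97.8 ± 11.7 CPM.

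The route by which the transcription factor NRF1 (gene Nfe2l1) senses low proteasome activity and raises subunit genes had 1 gene higher and 1 lower among 9. Nfe2l1 held 322, 333 and 340 CPM with the vector and 402, 414 and 381 CPM with HMGB2. It was 1.2-fold higher (log2 fold change 0.27 ± 0.07 SE, adjusted p = 0.0194 in edgeR), but the call was lost without vector 2 (0.0723), HMGB2 1 (0.0768) or HMGB2 2 (0.0968). Its log2 fold change was 0.28 in the 4 libraries without vector 1 and HMGB2 3, where 1 of the 9 rose and 4 fell. Nsfl1c, a cofactor of the unfoldase p97, had a log2 fold change of -0.25 (adjusted p = 0.0396 in edgeR), a call that held with HMGB2 3 left out (0.0459) and was lost without any other single library (up to 0.155), and Nfe2l2 lay at -0.10 without passing.

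Of 5 shuttle receptors, which carry ubiquitinated proteins to the 19S particle, 3 fell: Ubqln1 by 0.37 (174, 175 and 174 against 129, 132 and 143 CPM), Rad23b by 0.35 and Ubqln4 by 0.29 on the log2 scale. The call of Ubqln4 was lost without vector 3 (edgeR adjusted p = 0.0766), HMGB2 1 (0.0559), HMGB2 2 (0.0806) or HMGB2 3 (0.0531). Ubb, which encodes a chain of ubiquitin units, fell by 0.35 on the log2 scale, a call lost without vector 2 (edgeR adjusted p = 0.0647), HMGB2 1 (0.126) or HMGB2 2 (0.114).

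The ubiquitin ligases of striated muscle went the other way, with 3 of 5 higher. Trim63, which marks sarcomere proteins for degradation, held 20.3, 19.4 and 17.7 CPM with the vector and 59.99, 62.6 and 70.4 CPM with HMGB2 (log2 fold change 1.75 ± 0.10 SE, adjusted p = 2.95e-06 in edgeR). Fbxo32, the other atrophy ligase, rose by 1.66 and Trim55, a relative of Trim63, by 1.6 on the log2 scale. These 3 are expressed in muscle cells, and the cardiomyocyte markers given above also stood higher with HMGB2; the part of cell makeup in their rise was not tested. Of 8 genes known to be induced by misfolded proteins 8 fell, with a median log2 fold change of -0.93. Those with the smallest p were the heat shock genes Hspa1b (-6.40) and Hspa1a (-6.38), a near-identical pair whose reads may be shared, and Hspb1 (-1.43). Without vector 1 and HMGB2 3 the same numbers of muscle ligases (3) and stress genes (8) passed, and 3 shuttle receptors fell.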

How the data were processed

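Raw counts per gene for 3 vector and 3 HMGB2 libraries were used as the authors deposited them. The authors also deposited FPKM values, which are these counts per gene length and library size (checked over 2159 genes, largest coefficient of variation of the implied length 0.0199%), and which served for levels between genes. Per the submitters' processing notes the build was mm10 and the tools, with no roles given, included StringTie 1.3.3b, HTSeq 0.6.1, HISAT2 2.2.1 and FastQC 0.10.1, and the labels' protocols name TRIzol total RNA and the VAHTS Universal V5 kit. Genes were tested with edgeR 4.0.16 (R 4.3.3; filterByExpr with a minimum count of 10 and a total of 15, TMM factors of 0.986 to 1.016, robust quasi-likelihood fit on group, all 15429 genes adjusted together by Benjamini-Hochberg). CPM use TMM-scaled totals. SEs were derived from each fold change and its F statistic. DESeq2 1.42.0, limma 3.58.1, other factors, filters, FPKM, a replicate term and left-out libraries were alternatives. No pair of libraries within a group agreed within sampling noise (chi-square per degree of freedom at least 1.99). A permutation of 3 against 3 cannot go below a two-sided p of 0.1, so none is given.

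The genes, classes and lists were chosen with earlier results of these data known. Any of the 42 genes may be named with its log2 fold change. Values per library were given, per class, for up to 4 called genes by smallest p, or for the 2 highest in mean level if under 2 were called, and for Hmgb2, the catalytic and the immunoproteasome genes. For other lists, up to 3 called genes by smallest p were named; the result for 1 list is given only in part here. Psmf1, Psma8, Psmg4, Psmd9, Psmd3, Pomp, Nfe2l2, Dnajc2 and Ftsj3 were given values after theirs were seen. Copies are transcripts at least 97% identical over at least 150 bases in GENCODE M21 (GRCm38), which also gave positions, through Ensembl identifiers. Promoters are from RefSeq (GRCm38.p6), and no window was at hand for Psma8, Psmb1, Psmb2, Psmb7, Psmc3, Psmd3, Psmd7 and Psmg2. On counts simulated for this comparison over 15181 genes, recovery was 4% of 50 genes at 1.25-fold, 66% of 50 at 1.5-fold, 86% of 50 at 2-fold and 100% of 50 at 4-fold, with 9 unchanged genes called.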

Additional observations from a re-analysis of the deposited data

How the results depend on the processing

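Psme4 kept its rise in every alternative run, and the falls did not keep theirs. The number of the 42 genes that fell was 3 on the FPKM scale with a pseudocount of 0.1 and 3 with 1 (Psmc2, Psmd14 and Psmg4, which had not passed on counts). Of all genes 7.96% and 7.98% fell in these 2 runs. Leaving out 1 library at a time, it ranged from 0 to 5, the number that rose from 1 to 2, and over all genes 866 to 1960 fell and 1567 to 2526 rose. Without vector 1 and HMGB2 3, 2986 of all genes and 19 of the 42 fell and 2 of the 42 rose. The deviations of same-numbered libraries had correlations of -0.32, 0.23 and -0.37, and the numbers were not taken to pair samples. Vector 1 and HMGB2 3, which stood apart, shape all of these values, so they cannot exclude a pairing by number. The highest correlation across the groups was that of vector 1 with HMGB2 3 (0.52), and what these libraries share was not tested. With a replicate block 1459 genes rose and 754 fell, and of the 42 genes 0 fell. The direction of uncalled genes changed without vector 1 and HMGB2 3 for Psmg3 (0.12) and Psmf1 (0.052), and on the FPKM scale for Psmf1 (0.014 and 0.011). With 1 library left out it changed for Psma1 (-0.073 to 0.14), Psma2 (-0.27 to 0.013), Psmb1 (-0.24 to 0.023), Psmb4 (-0.26 to 0.0050), Psmb5 (-0.069 to 0.21), Psmb6 (-0.22 to 0.051), Psmc3 (-0.16 to 0.029), Psmc5 (-0.14 to 0.032), Psmd13 (-0.15 to 0.031), Psmg2 (-0.15 to 0.092), Psmg3 (-0.22 to 0.24) and Psmf1 (-0.041 to 0.035). The cause was not tested. In simulated counts, differences as small as most of those here were seldom recovered. The simulation drew each gene independently and over a wide range of levels, without the shared deviation of vector 1 and HMGB2 3. Its recovery is therefore not a measure for these 42 genes.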
